A study of Mus musculus with 4 samples.

Results

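The genes described here are those whose hepatic response to refeeding differed between mice with and without Drp1 in hepatocytes. Drp1, encoded by Dnm1l, is the GTPase that divides mitochondria. For each gene the refed minus fasted difference of the Cont livers was subtracted from that of the Drp1LiKO livers, on the log2 scale, and the result is called the difference of differences. It was calculated for 14371 of 30161 genes or transcripts, those with a probe well above background on all 4 arrays (18004 of 39429 probes). A gene was called at a difference of differences of at least 2-fold, which is 1 on the log2 scale.

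Cont mice were Drp1 flox/flox, and Drp1LiKO mice were their Alb-Cre Tg/+ Drp1 flox/flox sibling littermates, in which the albumin promoter drives Cre in hepatocytes. All were male and had been on a high-fat diet, for 24 weeks by the labels. One array was hybridized per group: Cont fasted, Drp1LiKO fasted, Cont refed and Drp1LiKO refed. The refed mice had 4 h of food after a fast of 17 h by the series text and 16 h by the methods. The 2 arrays named only Cont and Drp1LiKO carry no feeding state in their labels and were read as fasted from the study's description, and per the labels their raw data were also part of earlier submissions. By the methods, fasted livers were taken from 10 to 11 o'clock and refed livers from 14 to 15 o'clock, so feeding and time of day cannot be told apart. Whether an array holds 1 mouse or a pool is not given in the sources used here.

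With 1 array per group no difference here has a replicate check or a p-value. The standard error (SE) beside a value comes from the scanner's error model, covers measurement only, and leaves out variation between mice. All levels are log2 signals relative to the 75th percentile of their own array, which was 461 for Cont fasted, 722 for Drp1LiKO fasted, 357 for Cont refed and 526 for Drp1LiKO refed in scanner units. All 4 arrays shared 1 slide and 1 scan. The 6 hepatocyte markers were well above background on every array and none was called. Dnm1l itself read 1.02 in the Cont and 0.81 in the Drp1LiKO fasted liver, 0.66 and 0.54 after refeeding, a difference of differences of 0.09 (SE 0.29). The deleted exons are not given in the sources used here, so this probe does not check the genotype.

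Refeeding after a fast raises insulin and lowers glucagon. In the liver this switches on fatty acid and cholesterol synthesis through SREBP transcription factors, switches off gluconeogenic genes through exclusion of FoxO1 from the nucleus, and withdraws the fatty acid signal that keeps PPARα targets of oxidation and ketogenesis high during fasting. The same livers also make the circulating acute-phase proteins and respond to interferon, programs that act through STAT and NF-κB factors.

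Refeeding changed more genes in the Drp1LiKO than in the Cont pair. In Cont, 572 genes (3.98% of those measured) changed at least 2-fold, 231 up (1.61%) and 341 down (2.37%). In Drp1LiKO, 843 genes (5.87%) did, 410 up (2.85%) and 433 down (3.01%). Of these, 207 genes passed 2-fold in both pairs in the same direction, which is 36.2% of the Cont and 24.6% of the Drp1LiKO responses. Across genes the 2 responses, which share no array, had a Pearson correlation of 0.58 and a Spearman correlation of 0.64, given as a description because genes are not replicates.

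The difference of differences reached 2-fold in 610 genes, which is 4.24% of the genes measured. It was positive, a more positive refed minus fasted change in Drp1LiKO than in Cont, in 269 (1.87%) and negative in 341 (2.37%). A positive value does not require a higher refed level in Drp1LiKO. Its median over all genes was 0.04 and the median SE was 0.29, and 535 of the 610 lay at least 3 SE from 0. With each array scaled to its median instead, which moved the median over all genes to 0.15, 376 genes were positive and 267 negative, so the split between the directions depends on the scaling. Just inside the threshold the smallest absolute value was 1.00016, and just outside it the largest was 0.999. The measure uses all 4 arrays, so a single array can create it. In 290 of the 610 genes, 1 array lay at least 2-fold from the median of the other 3, which lay within 2-fold of each other.

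The 610 genes were sorted by which pair responded. A rise of at least 2-fold in Cont was lost in Drp1LiKO in 95 genes (0.661% of those measured), and a fall was lost in 58 (0.404%). A rise was gained in Drp1LiKO in 116 genes (0.807%) and a fall in 113 (0.786%). The response was reversed in 12 genes, 7 from rise to fall (0.0487%) and 5 from fall to rise (0.0348%). A rise was weaker in Drp1LiKO in 2 genes (0.0139%) and a fall in 6 (0.0418%), and a rise was stronger in 7 (0.0487%) and a fall in 13 (0.0905%). In 188 genes each response was under 2-fold, with the difference of differences positive in 77 (0.536%) and negative in 111 (0.772%). For comparison, 59 rises (0.411%) and 120 falls (0.835%) passed 2-fold in both pairs with a difference of differences under 2-fold. The remaining 13582 genes (94.5%) had a difference of differences under 2-fold and did not pass 2-fold in both pairs. They include genes that changed at least 2-fold in 1 pair only.

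**Figure D1:**
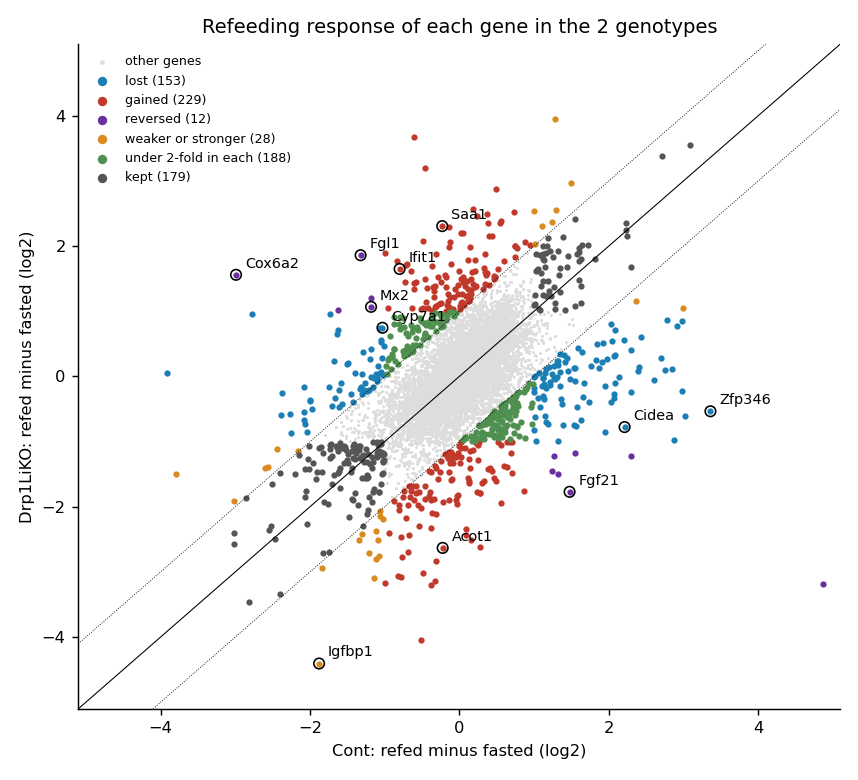
Refed minus fasted log2 difference of each of the 14371 genes in the Cont pair (horizontal axis) and the Drp1LiKO pair (vertical axis), with colors for the sets, counts in the legend, and ringed points for 11 labeled genes. The solid line marks equal responses and the dotted lines a difference of differences of 2-fold. Lost responses lie along the horizontal axis, gained ones along the vertical axis, and the 12 reversed genes in the upper left and lower right.

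Several insulin-driven lipogenic genes rose after refeeding in both genotypes. Thrsp, a nuclear protein that promotes lipogenesis, rose by 2.71 in Cont and 3.39 in Drp1LiKO. Angptl8, an insulin-induced secreted regulator of lipoprotein lipase, rose by 3.09 and 3.56, and Mid1ip1, an activator of acetyl-CoA carboxylase, rose by 2.23 and 2.36. Fasn, fatty acid synthase, rose by 1.54 and 2.42. These 4 genes passed 2-fold in both pairs without reaching it for their difference. Of 24 measured lipogenic genes, 5 rose and 0 fell at least 2-fold in Cont, and 10 rose and 3 fell in Drp1LiKO.

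Srebf1, the gene for the lipogenic transcription factor SREBP1, read -1.35 in the fasted and -0.06 in the refed Cont liver, and -3.0 and -0.45 in the Drp1LiKO livers. The fasted Drp1LiKO level was the lowest of the 4, and the rise was larger in Drp1LiKO (2.55) than in Cont (1.29), a difference of 1.26 (SE 0.31). With normexp, a background correction that starts from the raw spot means, the difference was 0.90 and no longer called. Acaca, the acetyl-CoA carboxylase that commits carbon to fatty acids, went from 2.14 to 2.25 in Cont and from 1.69 to 3.03 in Drp1LiKO, a difference of 1.23 (SE 0.29), and its 3 probes ranged from 0.48 to 1.23. Scd1 and Lpin1 went the opposite way. Scd1, the desaturase that makes oleate, went from 4.68 to 5.27 in Cont and from 3.97 to 3.14 in Drp1LiKO (-1.41, SE 0.29). Lpin1, a phosphatidate phosphatase that is also a fasting-induced coactivator of PPARα, went from 0.34 to -0.65 in Cont and from 1.27 to -1.90 in Drp1LiKO (-2.18, SE 0.30). The list as a whole had 3 members called higher, among them Insig1, described below, and 2 called lower. Together these were 20.8% of the list, against 4.24% of all genes, and the median was 0.17.

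Of 23 measured genes of cholesterol synthesis and uptake, the targets of SREBP2, 5 were called higher (21.7%, against 1.87% of all genes) and 0 lower. The median difference of differences was 0.46 against 0.04 over all genes. None of the 23 rose 2-fold in Cont and 6 did in Drp1LiKO. Insig1, the sterol-sensing anchor of SREBPs, went from -0.51 to -0.69 in Cont and from -1.38 to -0.01 in Drp1LiKO (1.55, SE 0.29). It is counted in the lipogenic list as well. Sqle, squalene epoxidase, went from -1.18 to -1.59 in Cont and from 0.47 to 1.52 in Drp1LiKO (1.46, SE 0.30), with both Drp1LiKO livers above both Cont livers. Mvd (1.07) and Idi1 (1.04), enzymes of the isoprenoid segment, were also called, although Mvd gave 0.95 with normexp and Idi1 0.93 with the authors' quantile-normalized values. Idi1 belonged to the lost falls, since it fell by 1.1 in Cont and by 0.06 in Drp1LiKO. The refed Drp1LiKO liver held the highest level in 13 of the 23 genes (56.5%, against 26.4% of all genes measured).

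Of 41 measured genes of fatty acid oxidation and ketogenesis, 8 were called lower (19.5%, against 2.37% of all genes) and 0 higher. The 8 were Acaa1b, Acot1, Acot2, Acot3, Angptl4, Vnn1, Cidec and Fgf21, so the calls are not limited to oxidation enzymes. Cidec is also counted among the lipid droplet genes below, and Fgf21 among the integrated stress response genes. The median over the list was -0.46, and 36 of the 41 values were negative (87.8%, against 45.4% of all genes). The median refeeding response was -0.14 in Cont and -0.58 in Drp1LiKO. In 29 of the 41 genes the refed Drp1LiKO liver had the lowest level of the 4 (70.7%, against 24.5% of all genes), and in none had it the highest.

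Acot1, a cytosolic acyl-CoA thioesterase, read 5.38 and 5.15 in the fasted and refed Cont livers and 5.40 and 2.77 in the Drp1LiKO livers. The first 3 levels were close to each other and the refed Drp1LiKO liver stood below them (-2.41, SE 0.29). Angptl4, a fasting-induced inhibitor of lipoprotein lipase, had the same shape: 6.10 and 5.39 in Cont, 5.95 and 3.78 in Drp1LiKO (-1.45, SE 0.29). The refed Drp1LiKO liver was also set apart below the others for Acaa1b, a peroxisomal thiolase (-1.15), and for Vnn1, a pantetheinase (-1.02, but -0.91 with scaling to the median and -0.97 with normexp). Acot2, the mitochondrial thioesterase, differed: it read -2.09, 0.38, -2.87 and -2.70 in Cont fasted, Drp1LiKO fasted, Cont refed and Drp1LiKO refed, so that the fasted Drp1LiKO liver was the one apart (-2.30, SE 0.39). Acot3, a peroxisomal thioesterase, read 2.93, 0.88, 2.32 and -1.02 in the same order (-1.28, SE 0.29). The Acot genes are close in sequence, and the arrays cannot show how far a probe binds a neighboring member.

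Slightly under the threshold lay Cpt1a, the carnitine palmitoyltransferase that admits fatty acids into mitochondria, with 4.94 and 4.52 in Cont and 5.18 and 3.95 in Drp1LiKO (-0.81, SE 0.29). It was not called. Pdk4, which blocks pyruvate oxidation during fasting, fell in both pairs, by 1.24 in Cont and by 2.10 in Drp1LiKO.

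Fgf21, the fasting hormone that is a target of both PPARα and the integrated stress response, was reversed. It read 1.75 in the fasted and 3.23 in the refed Cont liver, and 4.33 in the fasted and 2.56 in the refed Drp1LiKO liver. The 2 pairs crossed: the fasted Drp1LiKO liver held the highest level and the fasted Cont liver the lowest. Cont rose by 1.47 (SE 0.20) and Drp1LiKO fell by 1.77 (SE 0.20), a difference of -3.25 (SE 0.29). Its probe maps to chr7:52869305-52869364 (mm9).

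Of 24 measured lipid droplet genes, 5 were called lower (20.8%, against 2.37% of all genes) and 0 higher, with a median of -0.34. Cidec, a droplet fusion protein, read 2.0 and 3.0 in Cont and 3.59 and 2.77 in Drp1LiKO, and its rise in Cont was lost (-1.82, SE 0.29; second probe -2.19). G0s2, an inhibitor of adipose triglyceride lipase, read 4.43 and 5.85 in Cont and 3.72 and 3.94 in Drp1LiKO (-1.20, SE 0.29). Plin5, which tethers droplets to mitochondria, read 5.17 and 5.19 in Cont and 5.38 and 4.28 in Drp1LiKO (-1.12, SE 0.29), and Mogat1, a monoacylglycerol acyltransferase, differed by -1.55.

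Cidea, a paralog of Cidec typical of brown fat and of steatotic liver, read 2.08 and 4.29 in Cont and -1.04 and -1.81 in Drp1LiKO, a lost rise of -2.99 (SE 0.29). Both Cont livers were above both Drp1LiKO livers. Cfd, which encodes adipsin and is an adipocyte marker, read 2.08 and 4.45 in Cont and -2.99 and -1.83 in Drp1LiKO, a weaker rise (-1.20, SE 0.30) that was not called with the authors' values (-0.87). Of 12 adipocyte markers 7 were measured, with 1 called higher (Cox8b, 1.58) and 2 lower (Cidea and Cfd). Together these were 42.9% of the 7, against 4.24% of all genes. Their summed level, in multiples of the 75th percentile, was 14.9 in Cont fasted, 6.44 in Drp1LiKO fasted, 47.9 in Cont refed and 6.92 in Drp1LiKO refed. Adipoq, Plin1, Lep and Retn were well above background on no array. In bulk liver, fewer cells of a type and less RNA per cell cannot be told apart, and the part of other cells in the Cidea and Cfd values was not tested.

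**Figure D2:**
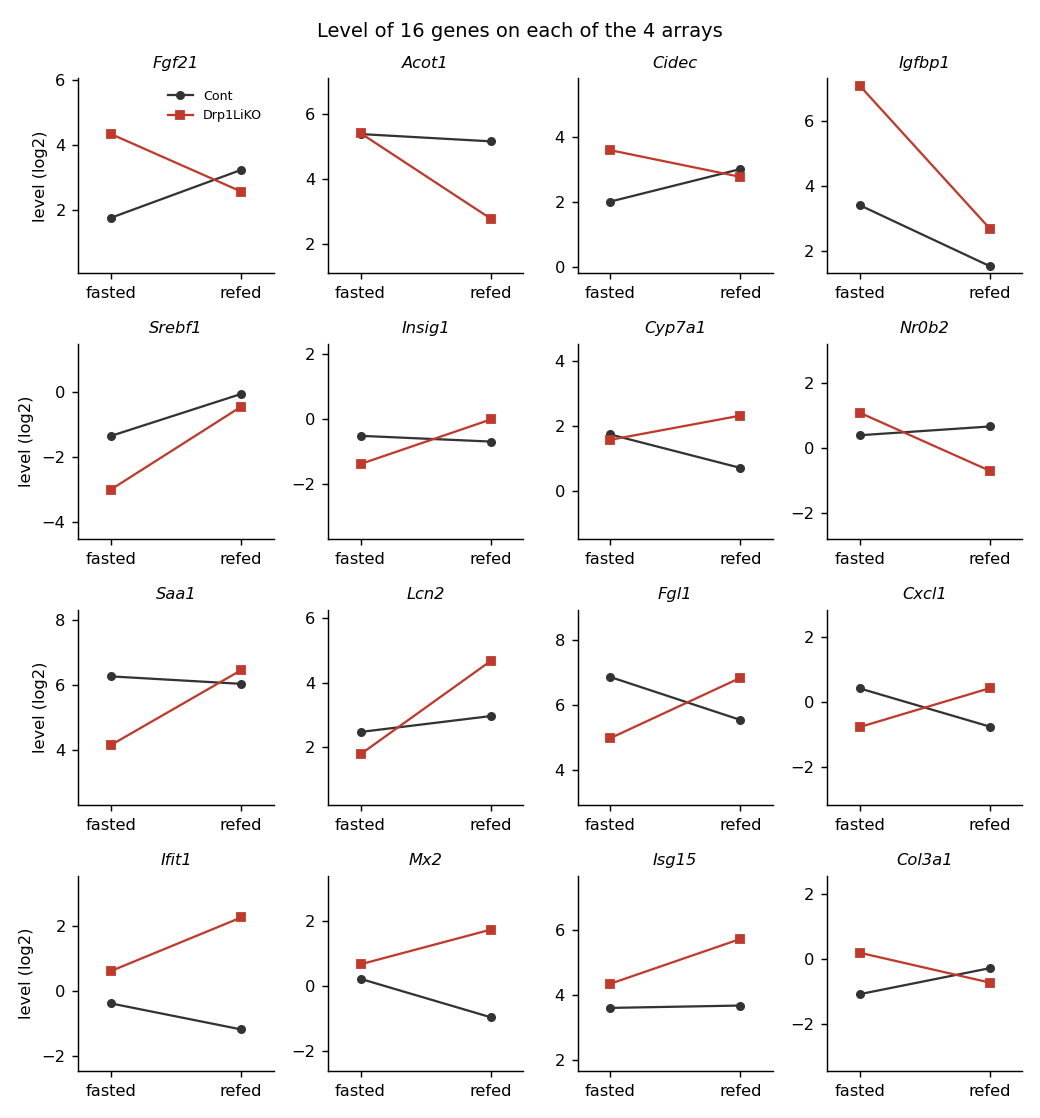
Log2 level, relative to the array's 75th percentile, of 16 genes in the fasted and refed livers of Cont (black circles) and Drp1LiKO (red squares). Each point is 1 array, a line joins the 2 arrays of a genotype, and each panel spans 6 log2 units, so that slopes can be compared. In Fgf21, Fgl1, Cxcl1 and Mx2 the lines slope in opposite directions by at least 2-fold each, and in Ifit1 and Isg15 they diverge after refeeding.

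Gluconeogenic and FoxO-dependent genes were called lower in 3 of 17 cases (17.65%, against 2.37% of all genes) and higher in 0, with a median of -0.29. Igfbp1, a FoxO1 target that is turned off by insulin, read 3.40 and 1.52 in Cont and 7.08 and 2.67 in Drp1LiKO. Both Drp1LiKO levels were above their Cont counterpart, and Igfbp1 fell by 4.41 in Drp1LiKO and fell by 1.88 in Cont (-2.53, SE 0.29). G6pc, the glucose-6-phosphatase that releases glucose from the liver, read 4.04 and 5.42 in Cont and 4.27 and 3.53 in Drp1LiKO. It was the refed Cont liver that stood apart, and the rise of 1.38 there was lost in Drp1LiKO (-2.12, SE 0.29). Sik1, a CREB-induced kinase, read -3.35 and -0.37 in Cont and -2.19 and -1.34 in Drp1LiKO, so its rise was lost (-2.13, SE 0.37). Pck1, which makes phosphoenolpyruvate, read 6.65 and 6.02 in Cont and 7.11 and 5.51 in Drp1LiKO and was just short of a call (-0.97, SE 0.29), which it passed with the authors' values (-1.18).

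Stress genes did not share 1 pattern. Of 21 measured genes of the integrated stress response, 3 were called lower and 1 higher (19% together, against 4.24% of all genes), with a median of -0.21. Fgf21, described above, was 1 of the 3 called lower. Ddit4, an inhibitor of mTORC1, read 0.80 and 1.07 in Cont and 4.19 and 1.58 in Drp1LiKO, and the fasted Drp1LiKO liver was set apart above the other 3 (-2.88, SE 0.29). Atf3, a stress-induced transcription factor, read -2.52 and -1.08 in Cont and 3.06 and 3.35 in Drp1LiKO, high in Drp1LiKO in both feeding states (-1.16, SE 0.32), but its difference was -0.74 with normexp. Ddit3, which encodes CHOP, read 0.29 and -0.50 in Cont and 2.38 and 3.10 in Drp1LiKO (1.51, SE 0.29). Asns, asparagine synthetase, rose in both, by 1.60 and 1.47.

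Of 14 measured p53-dependent growth arrest genes, 3 were called lower (21.4%, against 2.37% of all genes) and 0 higher, 12 values were negative, and the median was -0.35. Cdkn1a, the cell cycle inhibitor p21, read -1.08 and -2.38 in Cont and 1.92 and -0.50 in Drp1LiKO (-1.11, SE 0.33). Phlda3 (-1.31) and Trp53inp1 (-1.08, and -0.97 with scaling to the median) were the other two, and in 11 of the 14 genes the fasted Drp1LiKO liver held the highest level. Of 15 measured replication genes, 4 were called higher (26.7%, against 1.87% of all genes) and 0 lower. All 4 encode subunits of the MCM helicase: Mcm4 (1.28), Mcm5 (1.26), Mcm6 (1.26) and Mcm3 (1.03, and 0.91 with normexp). Mcm6 read -0.25 and 0.10 in Cont and 0.87 and 2.48 in Drp1LiKO, and in 11 of the 15 genes the refed Drp1LiKO liver was highest.

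Bile acid genes gave opposite calls. Cyp7a1, the rate-limiting enzyme of bile acid synthesis, read 1.75 and 0.72 in Cont and 1.59 and 2.33 in Drp1LiKO. Its fall in Cont was lost (1.78, SE 0.29), with the refed Cont liver lowest. Nr0b2, the gene for SHP, a repressor of Cyp7a1, read 0.38 and 0.65 in Cont and 1.08 and -0.71 in Drp1LiKO, a gained fall (-2.06, SE 0.29). Cyp8b1, the sterol 12α-hydroxylase, was lowest in the refed Drp1LiKO liver too (-1.0, SE 0.29), at the threshold, and gave -0.89 with scaling to the median and -0.998 with normexp, where it was not called. Of 22 measured genes of this list 1 was called higher and 2 lower (13.6% together, against 4.24% of all genes), and the median was -0.07.

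Of 29 measured genes of the xenobiotic response, targets of the receptors CAR and PXR and of NRF2, 5 were called lower (17.2%, against 2.37% of all genes) and 0 higher. The median was -0.14, 10 of the 29 values were positive, and 5 genes fell and 3 rose at least 2-fold in Drp1LiKO. The 5 called lower were all cytochrome P450 genes. Cyp3a11, the main hepatic drug-oxidizing cytochrome, read 6.14 and 6.41 in Cont and 6.37 and 4.58 in Drp1LiKO (-2.06, SE 0.29; second probe -2.83). Cyp2b10, the classical CAR target, read 2.70 and 2.96 in Cont and 1.35 and 0.06 in Drp1LiKO (-1.54, SE 0.29). The others were Cyp2b13 (-1.82), Cyp2c38 (-1.04) and Cyp3a59 (-1.29, with a second probe at 0.07). Cyp2b13 gave -0.78 with normexp, and Cyp2c38 gave -0.93 with scaling to the median and -0.99 with the authors' values, so neither call held throughout. Cyp3a41b, named by its size of change, read 0.85 and 0.94 in Cont and 1.46 and -0.98 in Drp1LiKO (-2.52, SE 0.29). These families are close in sequence, so a probe may bind more than 1 member.

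Of 25 measured acute-phase genes, 8 were called higher and 1 lower (36% together, against 4.24% of all genes). The median difference of differences was 0.59, and 23 of 25 values were positive. At least 2-fold rises numbered 2 in Cont and 9 in Drp1LiKO. The median response was -0.04 in Cont and 0.64 in Drp1LiKO. Saa1, serum amyloid A1, read 6.26 and 6.03 in Cont and 4.15 and 6.45 in Drp1LiKO, a difference of 2.54 (SE 0.29). Saa2 read 6.35 and 6.38 in Cont and 4.37 and 6.58 in Drp1LiKO (2.18, SE 0.29). For both, the fasted Drp1LiKO liver was the one apart, below the other 3, and the refed Drp1LiKO level was close to that of Cont. Lrg1, a secreted leucine-rich glycoprotein, had the same shape (1.19), but gave 0.90 with the authors' values.

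In other acute-phase genes the refed Drp1LiKO liver was the high one. Lcn2, lipocalin 2, an iron-siderophore binding protein, read 2.48 and 2.97 in Cont and 1.79 and 4.66 in Drp1LiKO (2.38, SE 0.29). Orm3, an α1-acid glycoprotein, read 0.32 and 0.71 in Cont and 0.72 and 2.88 in Drp1LiKO (1.75, SE 0.29), and Apcs, serum amyloid P, read 1.59 and 1.54 in Cont and 2.53 and 3.87 in Drp1LiKO (1.39, SE 0.29). Orm1 (1.42) and Orm2 (1.41) were low in the fasted and high in the refed Drp1LiKO liver. Over the list, 17 of 25 genes were lowest in the fasted Drp1LiKO liver (68%, against 39.4% of all genes). Hamp, which encodes hepcidin, was the member called lower (-1.07, and -0.96 with scaling to the median): it read 5.89 and 7.30 in Cont and 6.80 and 7.14 in Drp1LiKO.

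Fgl1, a secreted fibrinogen-like protein, was reversed from fall to rise. It read 6.85 and 5.53 in Cont and 4.96 and 6.82 in Drp1LiKO, so that the 2 pairs crossed (3.18, SE 0.29), and its 3 probes ranged from 3.18 to 3.41. Its probe maps to chr8:42276846-42276905 (mm9). Cxcl1, a neutrophil-attracting chemokine, was reversed in the same direction, with 0.41 and -0.77 in Cont and -0.78 and 0.42 in Drp1LiKO (2.38, SE 0.29). Socs3, the feedback inhibitor of STAT3, fell in both pairs, by 2.15 in Cont and by 1.20 in Drp1LiKO.

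Of 11 neutrophil markers, 7 were measured, and 3 were called higher (42.9%, against 1.87% of all genes) and 0 lower: S100a9 (2.15), S100a8 (1.98) and Camp (1.43). S100a9 read 1.44 and 1.49 in Cont and 0.33 and 2.53 in Drp1LiKO. The defining marker Ly6g was measured and had a difference of differences of -0.06, Elane one of -0.05, and Cxcr2 and Ngp were well above background on no array. The summed level of the 7 was 94.8 in Cont fasted, 67.7 in Drp1LiKO fasted, 57.7 in Cont refed and 60.4 in Drp1LiKO refed, and the part of neutrophils in the acute-phase values was not tested.

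Of 30 measured interferon-stimulated genes, 9 were called higher (30%, against 1.87% of all genes) and 0 lower. The median difference of differences was 0.71, and 27 of 30 values were positive. In Cont 0 of the 30 rose at least 2-fold and in Drp1LiKO 8 did. The median response was 0.02 in Cont and 0.65 in Drp1LiKO. The refed Drp1LiKO liver held the highest level in 26 of the 30 genes (86.7%, against 26.4% of all genes). Relative to Cont fasted, the median level of the list was 0.02 in Cont refed, 0.71 in Drp1LiKO fasted and 1.24 in Drp1LiKO refed.

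Ifit1, an RNA-binding antiviral protein, read -0.37 and -1.17 in Cont and 0.62 and 2.27 in Drp1LiKO, a gained rise of 2.45 (SE 0.30). Both Drp1LiKO livers were above both Cont livers, and refeeding widened the gap. Mx2, an interferon-induced GTPase, was reversed: it read 0.23 and -0.96 in Cont and 0.67 and 1.74 in Drp1LiKO (2.25, SE 0.29). With normexp its difference was 1.99, slightly too small for a 2-fold reversal. Isg15, a ubiquitin-like modifier, read 3.60 and 3.68 in Cont and 4.34 and 5.72 in Drp1LiKO (1.31, SE 0.29; second probe 1.21). The remaining calls were Mx1 (1.94), Ifit3 (1.69), Rsad2 (1.55), Oasl1 (1.53) and the GTPases Igtp (1.30) and Irgm2 (1.09, and 0.99 with the authors' values). Not called were Cxcl10 (0.81), Stat2 (0.88), Irgm1 (0.90, and 1.01 with scaling to the median), Bst2 (0.09) and Gbp2 (-0.09), among others.

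**Figure D3:**
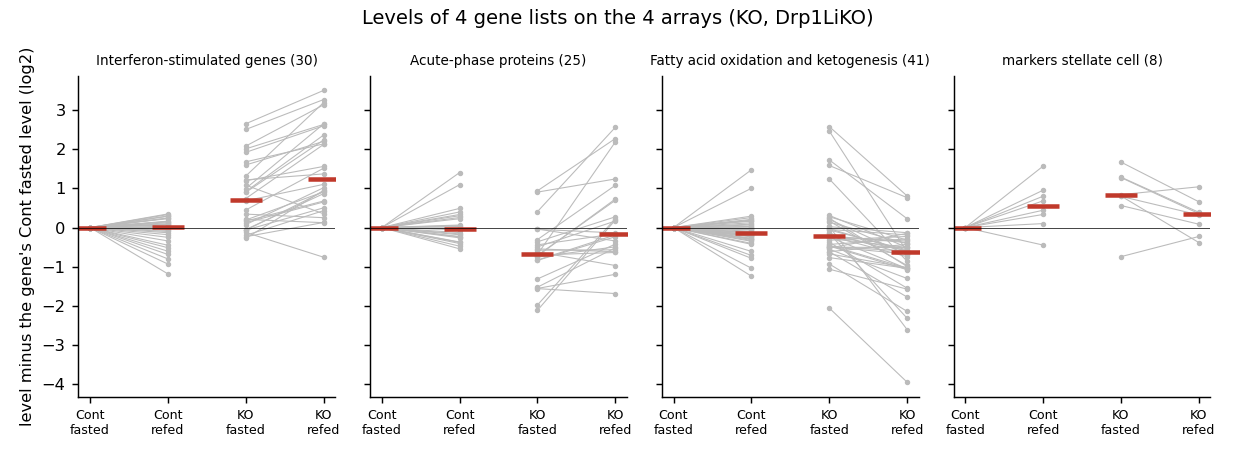
Level of each measured member of 4 gene lists minus its own level in the Cont fasted liver (log2), with 1 gray point per gene and array, gray lines joining the 2 arrays of a genotype, and a red bar at the list's median. The interferon list sits highest in the refed Drp1LiKO (KO) liver, with a median of 1.24. The acute-phase list dips in the fasted Drp1LiKO liver (-0.69), the oxidation list is lowest in the refed Drp1LiKO liver (-0.61), and the stellate list is lowest in the Cont fasted liver for 6 of 8 markers.

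The promoters of these genes were searched for a short sequence. The interferon-stimulated response element, bound by IRF factors, was taken as GAAA, any 2 bases, GAAA on both strands in the 250 bases before each RefSeq start (GRCm38.p6). It was found in 936 of 27025 genes with a promoter in the table (3.46%), where 1 chromosome was left out of the search. Of the 30 measured interferon-stimulated genes 23 had a promoter there, and 13 of the 23 (56.5%) held the motif, 6 of 7 among those called and 7 of 16 among those not called. In the acute-phase list 2 of 21 held it (9.52%), and in the oxidation list 0 of 30. A match is a description of the letters, not a binding site. The stretches around the match nearest to the start are shown for the 6 called genes, 5′ to 3′ on the gene's strand, with the matching 10 bases in capitals (TTTC at either end where the match is on the opposite strand).
Ifit1, chr19:34640789-34640828, plus strand: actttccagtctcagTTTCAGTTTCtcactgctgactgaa
Ifit3, chr19:34583392-34583431, plus strand: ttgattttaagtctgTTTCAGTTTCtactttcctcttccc
Rsad2, chr12:26456548-26456587, minus strand: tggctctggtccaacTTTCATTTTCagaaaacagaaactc
Isg15, chr4:156200860-156200899, minus strand: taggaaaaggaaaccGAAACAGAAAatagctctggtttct
Igtp, chr11:58199507-58199546, plus strand: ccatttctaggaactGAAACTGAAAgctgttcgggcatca
Irgm2, chr11:58214898-58214937, plus strand: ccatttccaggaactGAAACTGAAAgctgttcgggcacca
Across these stretches the match lay between 25 bases before the start (Igtp) and 122 bases before it (Ifit3). The letters of a sterol regulatory element (TCAC, any base, CCAC) were found in 1 of 16 cholesterol gene promoters (6.25%, against 1.22% of all genes). They were also found in 2 of 21 acute-phase (9.52%), 1 of 30 oxidation (3.33%) and 0 of 23 interferon gene promoters, so they were not particular to the cholesterol list. Those of a direct repeat bound by PPARα (AGGNCA, any base, AGGNCA) were found in 0 of 30 oxidation gene promoters (0.4% of all genes). No match says only that these letters are not within those 250 bases.

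Macrophage markers were also highest in the refed Drp1LiKO liver, in 11 of 12 measured, with a median difference of differences of 0.27 and none called. Their summed level was 97.9 in Cont fasted, 117 in Drp1LiKO fasted, 109 in Cont refed and 193 in Drp1LiKO refed, and the part of macrophages in the interferon values was not tested. Stellate cell markers had the lowest median of the cell type lists, -1.33, with 5 of 8 measured called lower (62.5%, against 2.37% of all genes) and 0 higher. The 5 were Timp1 (-2.05), Col3a1 (-1.72), Col1a1 (-1.70), Pdgfrb (-1.43, and -0.95 with normexp) and Col1a2 (-1.23). Col3a1 read -1.07 and -0.27 in Cont and 0.20 and -0.72 in Drp1LiKO. The collagens were higher after refeeding in Cont and lower in Drp1LiKO, each by less than 2-fold except Col1a1 in Drp1LiKO, which fell by 1.01. The endothelial list had no call in 10, although all 10 values were negative, with a median of -0.45.

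**Figure D4:**
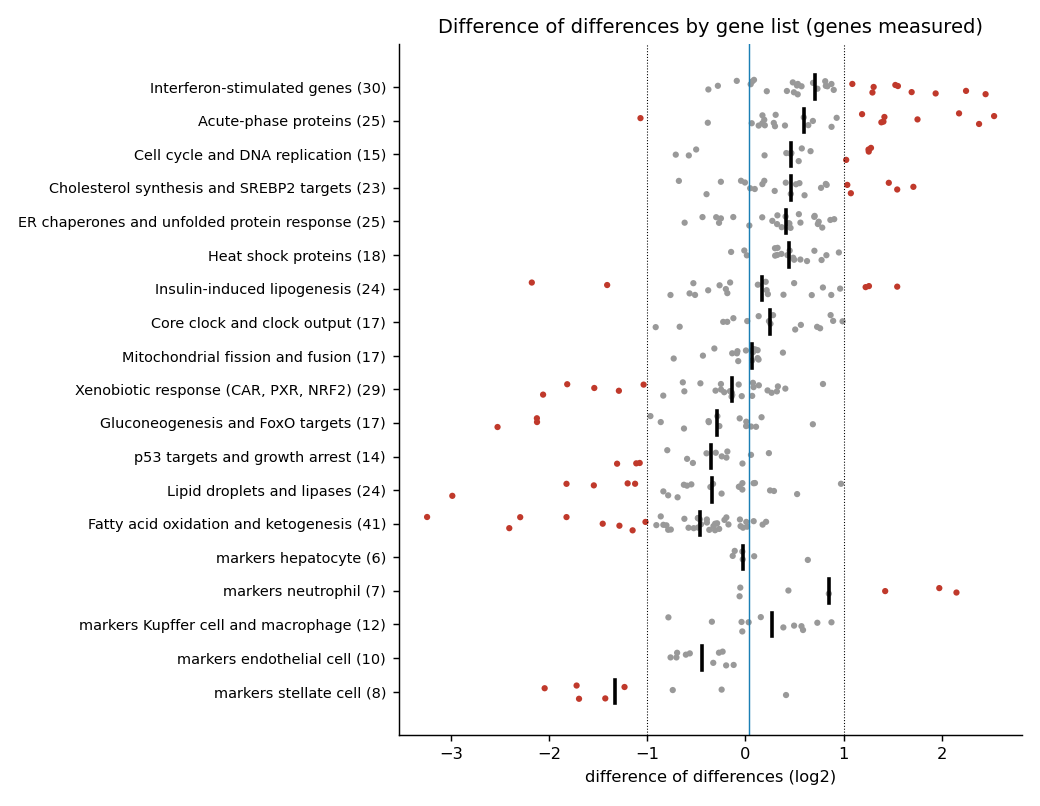
Difference of differences (log2) of every measured member of 19 gene and marker lists, 1 point per gene, red where it reached 2-fold, with a black bar at the list's median and the number measured in parentheses. The dotted lines mark 2-fold and the blue line the median of all genes (0.04). Interferon-stimulated and acute-phase genes lie to the right, oxidation genes and stellate cell markers to the left, and clock and mitochondrial fission genes have no red point.

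Several lists had no member past 2-fold, where 4.24% of all genes measured were called. At that share, lists of 10 to 25 genes can lack a call without differing from genes at large. None of 17 measured genes of mitochondrial fission and fusion was called (median 0.07), none of 16 mitochondrial chaperones and proteases (0.04), none of 17 clock genes (0.26), none of 10 urea cycle genes (0.29), none of 19 aminoacyl-tRNA synthetases (-0.11), none of 25 endoplasmic reticulum chaperones (0.41) and none of 18 heat shock proteins (0.44). With scaling to the median, Per2 (1.097), Usp2 (1.001), Hsp90aa1 (1.06) and Calr (1.01) passed 2-fold, so that the clock, heat shock and endoplasmic reticulum lists were not without a call there. Hsp90aa1, a cytosolic chaperone, read 4.87 and 4.88 in Cont and 4.60 and 5.56 in Drp1LiKO (0.95, SE 0.29), and 16 of 18 heat shock values were positive. Calr, the calcium-binding chaperone calreticulin, read 4.71 and 5.07 in Cont and 3.47 and 4.74 in Drp1LiKO (0.91, SE 0.29). Among clock genes Per2 came closest, with 0.99, and gave 1.07 with the authors' values, while Arntl gave -0.91 and, with normexp, -1.006.

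Among single genes named by size, the largest gained falls were Krt23, a keratin (-3.53), Ddit4, Rgs16, a regulator of G protein signaling (-2.83), Mfsd2a, a lysophospholipid transporter (-2.80), Ly9 (-2.63) and Cyp3a41b. Krt23 read 1.39 and 0.88 in Cont and 2.74 and -1.31 in Drp1LiKO. Mfsd2a read 4.14 and 3.81 in Cont and 4.39 and 1.26 in Drp1LiKO, with the refed Drp1LiKO liver alone apart, and Rgs16 had the same shape. The largest gained rises outside the lists were Mmd2 (3.66), Tff3, a trefoil peptide (2.61), Gm5165 (2.56) and Cd207, the langerhans cell lectin langerin (2.43). Tff3 read 0.04 and -0.79 in Cont and 0.35 and 2.13 in Drp1LiKO, whereas Mmd2 and Cd207 were called because of a low level in the fasted Drp1LiKO liver.

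Stronger and weaker responses were fewer. Hsd3b5, a male-biased steroid dehydrogenase of liver, read 4.67 and 5.95 in Cont and -0.20 and 3.74 in Drp1LiKO, a stronger rise (2.66, SE 0.29) from a far lower fasted level. Bcl6, a repressor in the growth hormone pathway, rose by 1.49 in Cont and 2.97 in Drp1LiKO. Lpin2, a second phosphatidate phosphatase, fell by 1.14 and 3.10 (-1.96, SE 0.29), although its second probe gave -0.51. Weaker falls were found for Phlda1 (1.33), the transcription factor Foxq1 (1.19, and 0.98 with normexp) and the chromatin regulator Arid5b (1.18).

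The other reversals from rise to fall named by size were Slc15a2, a peptide transporter (-3.51), Atoh8, a transcription factor (-2.81), Fam131c (-2.72), Peg12 (-2.70) and Osbpl3, an oxysterol-binding protein (-2.48). With normexp Slc15a2 gave -1.88, Fam131c -1.57, Peg12 -1.40 and Osbpl3 -1.97, too small for opposite changes of at least 2-fold in each pair. Atoh8 read -0.85 and 0.47 in Cont and 0.36 and -1.14 in Drp1LiKO. Osbpl3 read -1.70 and -0.44 in Cont and 0.02 and -1.20 in Drp1LiKO. The seventh gene of this set, Tox4, which encodes a nuclear HMG-box protein, had the largest absolute difference of differences of all genes measured, -8.05 (SE 0.31). It read -2.05 and 2.82 in Cont and 0.99 and -2.19 in Drp1LiKO, but its second probe gave 0.01, so the probes disagree. It falls outside the rule for naming genes for that reason, and was added after its values were seen. From fall to rise were also Cox6a2, a cytochrome oxidase subunit of striated muscle (4.55), and Pik3r3, a regulatory subunit of PI3-kinase (2.64, but 1.53 with normexp). Cox6a2 read -0.02 and -3.01 in Cont and -1.37 and 0.19 in Drp1LiKO.

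Lost falls included Tnni2, the fast skeletal muscle troponin I, which read 1.52 and -2.40 in Cont and -2.67 and -2.62 in Drp1LiKO (3.97, SE 0.35). Only the fasted Cont liver was high. Of 10 skeletal muscle markers, 8 were well above background on the Cont fasted array, 2 on each Drp1LiKO array and 1 on the Cont refed array, and the part of muscle RNA in the values of Tnni2 and Cox6a2 was not tested. The remaining lost falls named by size were Fyb, an adapter of hematopoietic cells (2.33), Atf7 (2.28), the lectins Clec2h (2.13) and Clec2d (1.91), and Atp11a, a phospholipid flippase (1.80). Clec2d read 0.88 and -0.79 in Cont and 0.47 and 0.71 in Drp1LiKO, with the refed Cont liver alone apart. Got1, the cytosolic aspartate aminotransferase, had the same shape, with 4.23 and 2.94 in Cont and 4.69 and 5.06 in Drp1LiKO (1.67, SE 0.29).

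The lost rises held the largest share of uneven spots of any set. Of the 95 genes, 73 had a mean level below -1, and 80 (84.2%) lay in the middle rows of the array (above row 180 and up to row 480) against 57.1% of all genes measured. In 45 (47.4%), the pixels of a spot varied by over 0.25 of their mean on at least 1 array, against 2.14% of all genes. That share was 19.0% in lost falls, 12.9% in gained rises and 11.5% in gained falls, but 3.39% in kept rises and 2.5% in kept falls. The middle rows also held 85.7% of the 7 genes reversed from rise to fall and 80% of the 5 reversed from fall to rise. Of the 6 named by size, Zfp346 (-3.90), Mga (-3.85), Atm (-2.80), Fut8 (-2.73) and Mios (-2.65) lay in those rows and were called because the refed Cont array alone was high. Zfp346 read -3.03 and 0.33 in Cont and -2.35 and -2.88 in Drp1LiKO, with a pixel variation of up to 0.42. Probes printed many times offer a comparison: on the refed Cont array, 15 of 749 dim repeated spots in the middle rows read at least 2-fold above their own probe's median, and 0 of 541 in other rows did. The other arrays gave 11 to 15 such spots inside these rows and 1 or 2 outside them. With the uneven spots left out 50 lost rises remained by count, and with the middle rows left out there were 15 among 6966 genes (0.215%). Cidea, G6pc, G0s2 and Cidec lie outside these rows and had a pixel variation of at most 0.19.

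**Figure D5:**
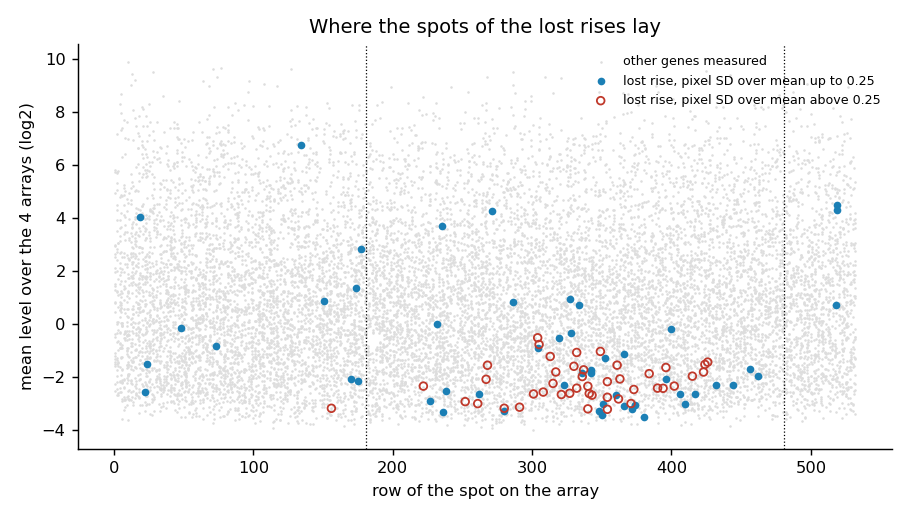
Mean log2 level over the 4 arrays against the row of the spot on the array, for genes with a lost rise (blue, or open red circles where the pixel SD over mean exceeded 0.25) and all other genes measured (gray). The dotted lines bound the middle rows, above 180 and up to 480. Of the 95 lost rises 80 lie between the lines, and the open circles gather there at low levels.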

How the data were processed

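Liver RNA of 4 groups was measured on 4 one-color Agilent 4x44K arrays. The intensity values are processed signals that, per the file headers, Feature Extraction (10.7.1.1, or 9.5.1.1 per the labels) corrected for background within each array. The authors' second table holds the same 39429 probes as deposited signals after quantile normalization, and served as an alternative.

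Outlier spots were left out, repeated spots averaged, and log2 signals set relative to each array's 75th percentile. The best-detected, then brightest, probe stood for a gene. Probe positions are mm9. Symbols came from RefSeq accessions or the files. Named genes were the 6 largest per set (3 for weaker and stronger) with an official symbol, probes of 1 sign and the same set in the authors' table, plus list members and Dnm1l. Members and lists were chosen with earlier results of these data known. Some list members are counted but not reported by name here. The sorting rules were tested on simulated data with measurement noise only. Those data held no variation between mice and no uneven spots, so the test covers the sorting alone. Alternatives were other scalings, background correction (limma 3.58.1, R 4.3.3), filters, probe summaries, thresholds, and, added after seeing the data, spot exclusions. Python 3.11.15, numpy 2.4.6 and pandas 2.3.3 were used. Precision is limited by the number of arrays.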

Additional observations from a re-analysis of the deposited data

Results flagged for a closer look

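The refeeding response went one way in the Cont pair and the other way in the Drp1LiKO pair, each by at least 2-fold, in 11 of the named genes. With 1 array per group these differences were not tested. The difference of differences was -3.51 for Slc15a2, -3.25 for Fgf21, -2.81 for Atoh8, -2.72 for Fam131c, -2.70 for Peg12 and -2.48 for Osbpl3, which rose in Cont and fell in Drp1LiKO. It was 4.55 for Cox6a2, 3.18 for Fgl1, 2.64 for Pik3r3, 2.38 for Cxcl1 and 2.25 for Mx2, which fell in Cont and rose in Drp1LiKO. With normexp it was -1.88 for Slc15a2, -1.57 for Fam131c, -1.40 for Peg12, -1.97 for Osbpl3, 1.53 for Pik3r3 and 1.99 for Mx2. Those values are too small for opposite changes of at least 2-fold in each pair, so these genes were not reversed under that setting. Fam131c, Peg12 and Pik3r3 had a spot with a pixel variation above 0.25 (0.34, 0.36 and 0.47), and 6 of the 7 genes reversed from rise to fall and 4 of the 5 reversed from fall to rise lay in the middle rows of the array (above 180 and up to 480).

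Among genes left out because they were not well above background on all 4 arrays, 6 of 10 skeletal muscle markers (Acta1, Myh1, Myh4, Ckm, Tnnt3 and Myl1) were well above background on the Cont fasted array only. That array enters every difference of differences.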

How the results depend on the processing

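No paired analysis was possible because each group has 1 array and the labels carry no replicate numbers, and for the same reason no replicate could be left out. The number of arrays and the signal over background limit every value. Counts are listed as higher, lower, lost rise, lost fall, gained rise, gained fall, reversed, weaker, stronger, under 2-fold in both, and kept, which were 269, 341, 95, 58, 116, 113, 12, 8, 20, 188 and 179. With normexp background correction they were 152, 179, 51, 28, 73, 65, 5, 3, 8, 98 and 88. Without the filter they were 1237, 1558, 490, 426, 503, 567, 245, 72, 94, 398 and 386 among 18840 genes. With the stricter filter they were 89, 82, 13, 19, 40, 39, 3, 5, 8, 44 and 63 among 7705 genes. At 1.5-fold they were 960, 1022, 231, 208, 437, 399, 85, 70, 139, 413 and 844, and at 4-fold 37, 61, 20, 5, 13, 16, 1, 0, 0, 43 and 13. With the middle rows (above 180 and up to 480) left out they were 106, 113, 15, 19, 47, 50, 3, 1, 10, 74 and 75 among 6966 genes, and with uneven spots left out the lost rises numbered 50, both chosen after seeing the data. Scaling to the median, the authors' values, the median over probes, subtraction of the running median over 500 genes, and the threshold of 2-fold and 3 SE kept every count within 1.5 times.

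Median list values moved by more than the median measurement SE in few cases. The adipocyte markers (-0.59) gave -0.28 with normexp and -0.90 with the stricter filter. The neutrophil markers (0.85) gave 1.43 without the filter and 0.44 with the stricter one. The stellate cell markers (-1.33) gave -0.99 without the filter and -0.99 without the middle rows. Without the filter, chemokines (0.06) gave -0.30 and T and NK cell markers (-0.03) gave -0.33. With uneven spots left out, erythroid markers (0.84) gave 0.26 and bile duct markers (0.46) gave -0.086. With the middle rows left out, glucocorticoid targets (-0.22) gave 0.22, chemokines (0.06) 0.39 and hepatokines (-0.10) 0.46. Erythroid markers (0.84) gave -0.40 and B cell markers (-0.35) gave -0.66 there. Several of these list medians thus changed sign. The medians of the interferon, acute-phase, oxidation and cholesterol lists kept their sign in every setting.

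Of 128 named genes or called list members, all kept their sign under the scalings, background correction, filters, probe summaries and trend correction that gave a value for them. Normexp moved 44 of the 128 by more than their SE. Of the 127 called at 2-fold, 7 lost the call with scaling to the median, 6 with the authors' values and 13 with normexp. Wipi1, an autophagy gene, lost it in all of these. Tsr1, a ribosome assembly factor with a difference of differences of 1.1, went to -0.013 with uneven spots or with the middle rows left out, because its other probe was then used.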

Other observations

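Some further genes had refeeding responses that were shared by the pairs, and others differed between them. Cish, a growth hormone and cytokine feedback inhibitor, fell by 3.01 in Cont and by 2.41 in Drp1LiKO, and Socs2 fell by 1.75 and 1.96. Rrm2, the ribonucleotide reductase subunit, rose by 1.14 in Cont and by 1.68 in Drp1LiKO. Derl3, of endoplasmic reticulum-associated degradation, rose by 2.29 and 1.68. Inhba, an activin subunit, read 0.30 and 0.34 in Cont and -0.46 and 1.02 in Drp1LiKO, a gained rise of 1.44, while Inhbe, a related hepatokine subunit, differed by -1.25. Cxcl13, a B cell chemokine, read -1.93 and -2.07 in Cont and -2.43 and -0.45 in Drp1LiKO (2.12, SE 0.34).

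Detection differed between arrays. The share of gene spots well above background was 51.4% for Cont fasted, 58.2% for Drp1LiKO fasted, 48.7% for Cont refed and 55.4% for Drp1LiKO refed. This ranks the arrays as their 75th percentile signal does, and the part of array brightness in the counts below was not tested. Of the genes that did not pass on all 4 arrays, 1032 were well above background on the Drp1LiKO fasted array only, 905 on both Drp1LiKO arrays only, 570 on the Drp1LiKO refed array only, 309 on the Cont refed array only and 291 on the Cont fasted array only.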
